A study of Rattus norvegicus with 12 samples.

Results

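The Hox genes were examined in 3 zones of rat cartilage dissected from the proximal tibia. They were taken as every gene of the array table whose only gene symbol was Hoxa, Hoxb, Hoxc or Hoxd followed by a number, with the brightest transcript cluster standing for a gene. The rule found 21 Hox genes among the 14300 genes that had a transcript cluster with a single symbol, and each of the 21 had 1 transcript cluster. A transcript cluster is the set of probes that the array assigns to 1 gene. Of 39 rat Hox gene names, 18 had no such cluster and were not analysed here. The measured genes were 5 of 11 in the Hoxa cluster, 6 of 10 in Hoxb, 4 of 9 in Hoxc and 6 of 9 in Hoxd.

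The tissue came from 8 Sprague-Dawley rats aged 10 days, and the labels name no transgene or treatment. The layers compared, with 4 arrays for each, were SZ, the superficial one at the joint surface, IDZ, the intermediate and deep articular layers pooled, and RZ, the resting layer of the growth plate. Each SZ sample held tissue of 1 animal, and the 4 came from animals 5, 6, 7 and 8. Each IDZ or RZ sample pooled 2 animals, and an IDZ and an RZ sample of 1 number came from the same 2 animals. Some IDZ and RZ samples also held tissue of animals 5, 6, 7 and 8, and the main tests took no account of this sharing. Zones were cut by hand with a razor blade from frozen sections. Signals are log2 values after robust multi-array average (RMA) normalization, so a difference of 1 is a change of 2-fold, and signals of different genes are not on 1 scale.

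Hox genes encode homeodomain transcription factors. They lie in 4 clusters (a, b, c and d) in mammals, and the genes of 1 number in different clusters are paralogs that descend from 1 ancestral gene. Genes with low numbers act early and towards the head, and genes with high numbers act later and towards the tail. In limbs, groups 9 and 10 pattern the upper segment in the mouse, group 11 the segment of the tibia or forearm, and group 13 the foot or hand. Many Hox proteins bind DNA together with TALE homeodomain proteins of the Pbx and Meis families, and Polycomb complexes keep Hox genes silent outside their domains. In rats the Hoxa, Hoxb, Hoxc and Hoxd clusters lie on chromosomes 4, 10, 7 and 3.

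Promoter windows are shown for 3 genes that carry the results below, to let the sequence at a gene low in SZ in each of clusters a and c be set beside that at the gene of cluster d that was high there. RefSeq (assembly GRCr8) gave a window of 300 bases, from 250 bases before to 50 after the start, for 11 of the 21 Hox genes. The windows are chr4:82622253-82622552 on the minus strand for Hoxa4, chr7:136048809-136049108 on the plus strand for Hoxc4 and chr3:80007756-80008055 on the plus strand for Hoxd9. Each is written 5′ to 3′ along the gene, in lower case with capitals at every TAAT, the core that homeodomains bind, on either strand.
Hoxa4: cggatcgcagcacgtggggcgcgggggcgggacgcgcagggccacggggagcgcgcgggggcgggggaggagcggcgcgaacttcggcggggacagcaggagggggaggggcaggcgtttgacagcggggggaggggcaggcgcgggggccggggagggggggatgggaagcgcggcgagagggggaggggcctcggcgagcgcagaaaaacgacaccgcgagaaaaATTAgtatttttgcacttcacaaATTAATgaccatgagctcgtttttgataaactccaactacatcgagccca
Hoxc4: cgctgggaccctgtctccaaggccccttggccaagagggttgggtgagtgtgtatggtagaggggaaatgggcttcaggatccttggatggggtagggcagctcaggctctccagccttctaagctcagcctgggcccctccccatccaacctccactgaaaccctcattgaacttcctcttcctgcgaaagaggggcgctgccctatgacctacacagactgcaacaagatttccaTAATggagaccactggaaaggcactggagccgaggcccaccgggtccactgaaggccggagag
Hoxd9: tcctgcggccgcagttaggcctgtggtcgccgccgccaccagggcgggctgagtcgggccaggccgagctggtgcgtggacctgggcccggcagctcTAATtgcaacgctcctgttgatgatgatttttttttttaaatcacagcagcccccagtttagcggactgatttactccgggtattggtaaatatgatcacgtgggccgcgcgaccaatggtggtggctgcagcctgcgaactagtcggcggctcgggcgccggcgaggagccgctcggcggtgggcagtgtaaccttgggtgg
With overlapping matches counted separately, TAAT or its complement ATTA occurred 3 times in the Hoxa4 window, 1 time in the Hoxc4 window and 1 time in the Hoxd9 window. It occurred in 7 of the 11 Hox windows and in 60.6% of 33469 windows of all genes. The longer site TGATNNAT, at which Hox and Pbx proteins can bind as a pair (ATNNATCA on the other strand), was in none of the 3 windows shown. It was in the windows of Hoxa2 and Hoxa7, which makes 2 of 11, and in 9.1% of all windows. The Hoxa4 and Hoxd9 windows were rich in CpG, with 34 and 27 CpG dinucleotides, whereas the Hoxc4 window held 6, next to a median of 7 over all windows. These matches describe the letters in the windows and say nothing of binding in these cells.

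Of the arrays, SZ replicate 4 stood apart. Its interquartile range of signals was 2.24 log2 units, while the other 11 arrays had 2.50 to 2.91. Counts of calls that changed without it are given below, with the differences for some of the genes. The background level was set at 6.36, the 95th percentile of 1269 clusters of olfactory and vomeronasal receptors, most of which should be silent in cartilage. The 6 members Hoxa2, Hoxb8, Hoxb9, Hoxb13, Hoxc12 and Hoxd10 had all 3 zone means under that level and are called dim. The other 15 had at least 1 zone mean above it. Because the arrays measured bulk tissue, fewer cells with a transcript and less transcript per cell cannot be told apart in any value below.

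In SZ compared with IDZ, 6 of the 9 genes of the a and c clusters were lower, whereas the genes of the b cluster did not pass the test, and in the d cluster 1 gene was lower and 1 higher. The genes that fell were Hoxa2, Hoxa4, Hoxa5, Hoxc4, Hoxc5, Hoxc9 and Hoxd3, by 0.29 to 1.38 log2 units, and the gene that rose was Hoxd9, by 0.43. These are 7 of 21 members lower and 1 higher (limma, adjusted p under 0.05 over all 27342 clusters), while 9.56% of all genes were lower and 17% higher. At a minimum of 2-fold, 3 members were lower (Hoxa5, Hoxc5 and Hoxc9), and 0 were higher, while 1.01% of all genes were lower and 4.57% higher. In 6 members (Hoxa4, Hoxa5, Hoxc4, Hoxc5, Hoxc9 and Hoxd3) all SZ arrays were below all IDZ arrays, as in 10.6% of all genes. The median difference was -0.13 over the 21 members and -0.03 over all genes. Leaving out SZ replicate 4 gave 10 members lower, with Hoxb4, Hoxb8 and Hoxd1 added, and 1 higher, while 19% of all genes were lower and 26% higher.

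**Figure D1:**
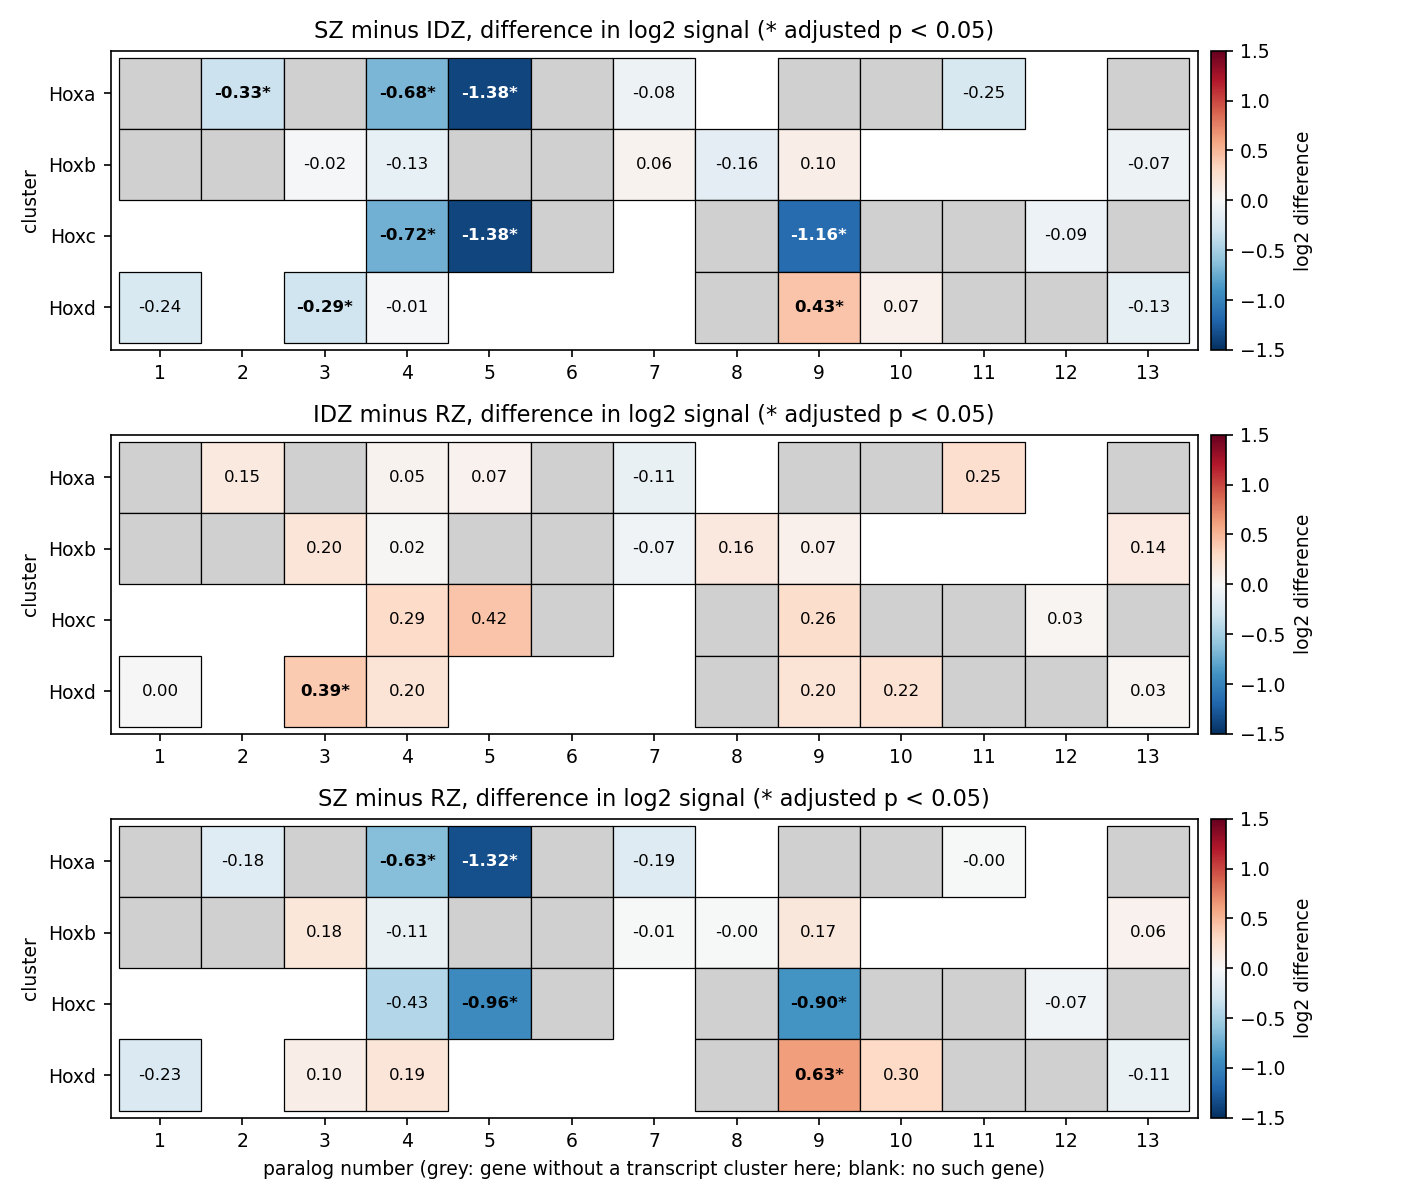
Difference in log2 signal for each of the 21 measured Hox genes, placed by cluster (vertical axis) and paralog number (horizontal axis), in SZ minus IDZ (top), IDZ minus RZ (middle) and SZ minus RZ (bottom); colour and printed value give the difference, and an asterisk marks adjusted p under 0.05. The lowest values, -1.38 for Hoxa5 and Hoxc5 and -1.16 for Hoxc9 in the top panel, lie in the a and c rows, and the b row has no asterisk.

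The zone medians differed by cluster. In SZ minus IDZ the median difference was -0.33 for the 5 genes of cluster a, -0.05 for the 6 of cluster b, -0.94 for the 4 of cluster c and -0.07 for the 6 of cluster d. Of the 9 genes of clusters a and c, 6 were lower and 0 higher, and of the 12 genes of clusters b and d, 1 was lower and 1 higher. The a and c clusters were put together after these values were seen, so the split is a description with no test. By paralog number the medians were -0.27 for groups 1 to 4, -0.16 for groups 5 to 8 and -0.08 for groups 9 to 13. Without the dim members they were -0.24, -0.73 and -0.19 in the same order, so the medians then showed no steady trend with paralog number. Each class held genes that fell and genes that did not pass the test.

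Hoxa5 and Hoxc5 are the 2 measured members of paralog group 5. In the mouse Hoxa5 patterns the vertebrae at the neck to chest transition and the lung. The Hoxa5 signal was 8.11, 8.36, 8.33 and 7.65 in SZ, against 9.39, 9.62, 9.74 and 9.23 in IDZ and 9.70, 9.36, 9.32 and 9.33 in RZ. All SZ arrays lay below all IDZ and RZ arrays. The difference was -1.38 ± 0.16 (SE, n = 4 arrays each) in SZ minus IDZ, a fall of 2.61-fold with adjusted p = 1.1e-05 in limma. In SZ minus RZ it was -1.32 ± 0.16 with adjusted p = 1.5e-05. This was the only member at 2-fold or more in SZ minus RZ.

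Hoxc5 had signals of 6.33, 6.44, 6.07 and 6.25 in SZ, against 7.83, 7.91, 7.64 and 7.23 in IDZ and 7.37, 7.10, 7.21 and 7.24 in RZ. The SZ arrays again lay below all others, and 3 of the 4, like their mean of 6.27, were under the background level, so the size of the fall is less certain than its direction. The difference was -1.38 ± 0.14 in SZ minus IDZ, 2.60-fold, with adjusted p = 2.4e-06, and -0.96 ± 0.14 in SZ minus RZ with adjusted p = 7.4e-05.

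**Figure D2:**
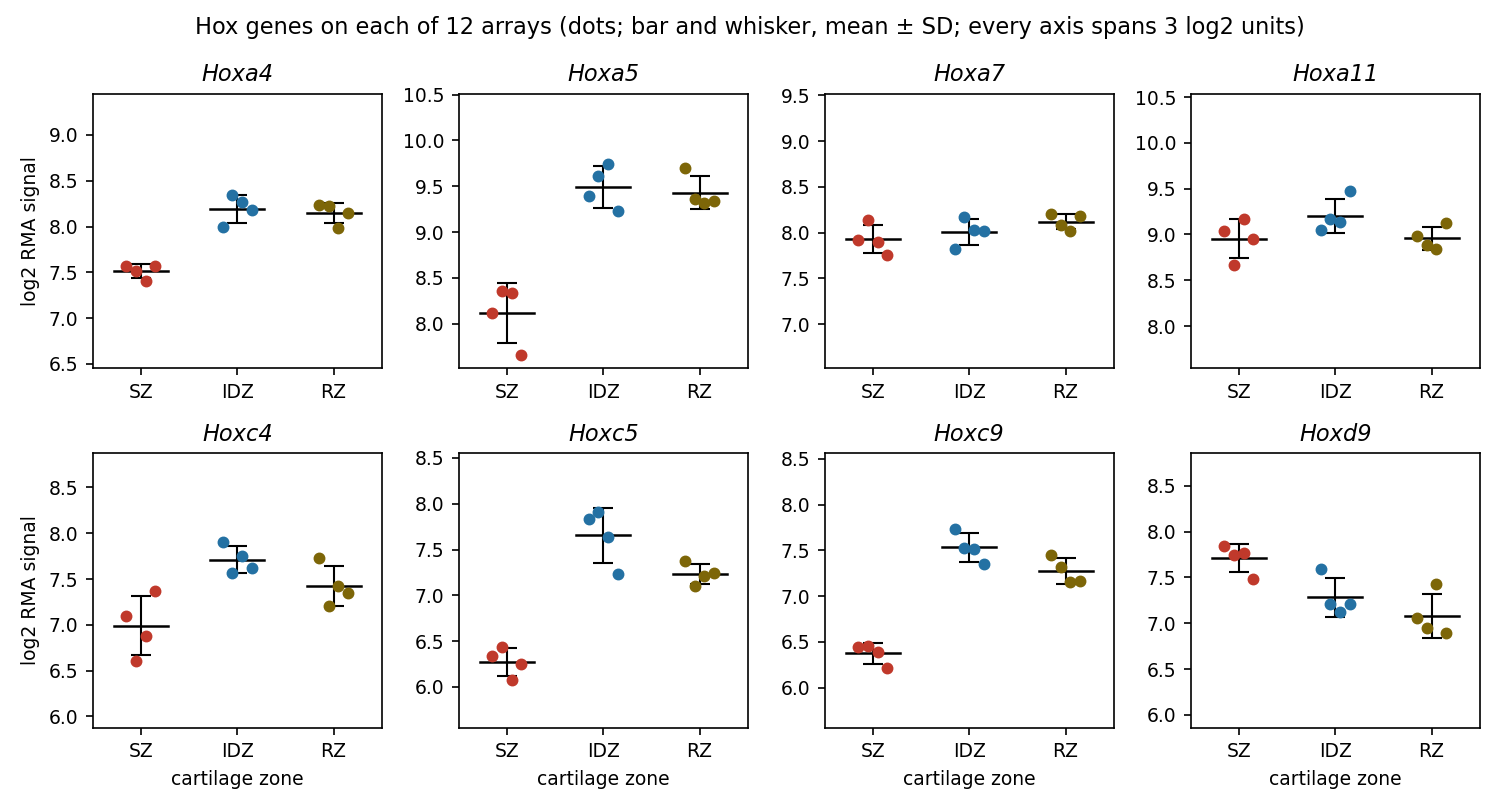
Log2 RMA signal of 8 Hox genes (vertical axis; each panel spans 3 log2 units) on the 4 arrays of each zone (dots), with the zone mean and SD (bar and whisker), SZ left, IDZ middle, RZ right. Hoxa4, Hoxa5, Hoxc5 and Hoxc9 show all SZ dots below all IDZ and RZ dots, Hoxa7 and Hoxa11 overlap between zones, and the Hoxd9 mean is highest in SZ at 7.71.

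Hoxa4 and Hoxc4 belong to paralog group 4, which helps pattern neck vertebrae in the mouse. The Hoxa4 signal was 7.57, 7.51, 7.41 and 7.57 in SZ, against 7.99, 8.35, 8.26 and 8.18 in IDZ and 8.23, 8.22, 7.99 and 8.15 in RZ. The SZ arrays were lowest, and the IDZ and RZ arrays overlapped. The difference was -0.68 ± 0.10 in SZ minus IDZ (adjusted p = 9.7e-05) and -0.63 ± 0.10 in SZ minus RZ (adjusted p = 0.00017). The other 2 measured genes of the group did not pass the test, with differences in SZ minus IDZ of -0.13 for Hoxb4 (95% interval -0.38 to 0.13) and -0.01 for Hoxd4 (-0.34 to 0.31).

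The Hoxc4 signal was 7.10, 6.61, 6.88 and 7.37 in SZ, against 7.90, 7.57, 7.75 and 7.63 in IDZ and 7.73, 7.20, 7.42 and 7.35 in RZ. SZ lay below IDZ on all arrays but overlapped RZ through SZ replicate 4, the highest of its zone. The difference was -0.72 ± 0.15 in SZ minus IDZ (adjusted p = 0.0026). In SZ minus RZ it was -0.43 ± 0.15, which missed the threshold (adjusted p = 0.056). Without SZ replicate 4 this difference was -0.56 and passed. In RefSeq, Hoxa4 and Hoxa5 overlap the span of Hoxa3, and Hoxc4 and Hoxc5 overlap that of Hoxc6. Whether the probes keep such overlapping transcripts apart was not tested.

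The 2 genes of group 9 above background moved in opposite directions. Hoxc9 and Hoxd9 act in the trunk and, for Hoxd9, in the upper limb segment of the mouse. The Hoxc9 signal was 6.45, 6.46, 6.39 and 6.21 in SZ, against 7.74, 7.53, 7.52 and 7.35 in IDZ and 7.45, 7.32, 7.16 and 7.17 in RZ. The SZ arrays lay close to the background level and below all IDZ and RZ arrays. The difference was -1.16 ± 0.11 in SZ minus IDZ, 2.23-fold, with adjusted p = 1.2e-06, and -0.90 ± 0.11 in SZ minus RZ with adjusted p = 1.2e-05.

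Hoxd9 had signals of 7.85, 7.74, 7.77 and 7.49 in SZ, against 7.59, 7.21, 7.12 and 7.21 in IDZ and 7.06, 6.95, 7.42 and 6.89 in RZ. SZ lay above RZ on every array, and it overlapped IDZ because IDZ replicate 1 exceeded SZ replicate 4. The difference was 0.43 ± 0.13 in SZ minus IDZ (adjusted p = 0.032) and 0.63 ± 0.13 in SZ minus RZ, 1.55-fold (adjusted p = 0.0029). The call against IDZ was lost without any one of IDZ replicates 2, 3 and 4 and SZ replicates 1, 2 and 3, at 0.37 to 0.42, whereas the call against RZ was kept without each array in turn. Hoxb9, the third measured gene of the group, was dim in all zones and differed by 0.10 in SZ minus IDZ (95% interval -0.10 to 0.29).

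On single arrays, the ratio of Hoxc9 to Hoxd9 separated SZ from the other zones. The log2 ratio ran from -1.40 to -1.27 in SZ, against 0.15 to 0.40 in IDZ and -0.27 to 0.39 in RZ. A ratio within an array is free of a shift common to all signals of that array, and the 2 signals are on different scales, so only its change between zones is of use. The ratio was 3.00-fold lower in SZ than in IDZ and 2.88-fold lower than in RZ. The exact two-sided permutation p was 0.0286 for each, the smallest value that 4 against 4 arrays allow. Because Hoxc9 lay close to the background level in SZ, the size of these changes is less certain than their direction. In all, 13 pairs of paralogs were compared in 3 zone comparisons, and of these 39 tests 13 reached that smallest p, 6 in SZ minus IDZ, 7 in SZ minus RZ and 0 in IDZ minus RZ. After Benjamini-Hochberg adjustment over the 39 exact tests, these 13 had p = 0.086, so none passed 0.05.

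Within group 4, Hoxa4 over Hoxb4 was 1.47-fold lower in SZ than in IDZ, and Hoxc4 over Hoxd4 was 1.63-fold lower, both at the smallest p. Hoxa4 over Hoxc4 changed by 0.04 log2 units (exact p = 0.77). Within group 5, Hoxa5 over Hoxc5 ran from 1.41 to 2.26 in SZ and from 1.56 to 2.11 in IDZ, so the zones overlapped (exact p = 1). With Hoxc5 under the background level in SZ, this does not show that the 2 genes fell equally. Within group 7, Hoxa7 over Hoxb7 overlapped between SZ and IDZ as well (exact p = 0.43). These ratios use the same signals as the single genes and are no separate evidence.

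**Figure D3:**
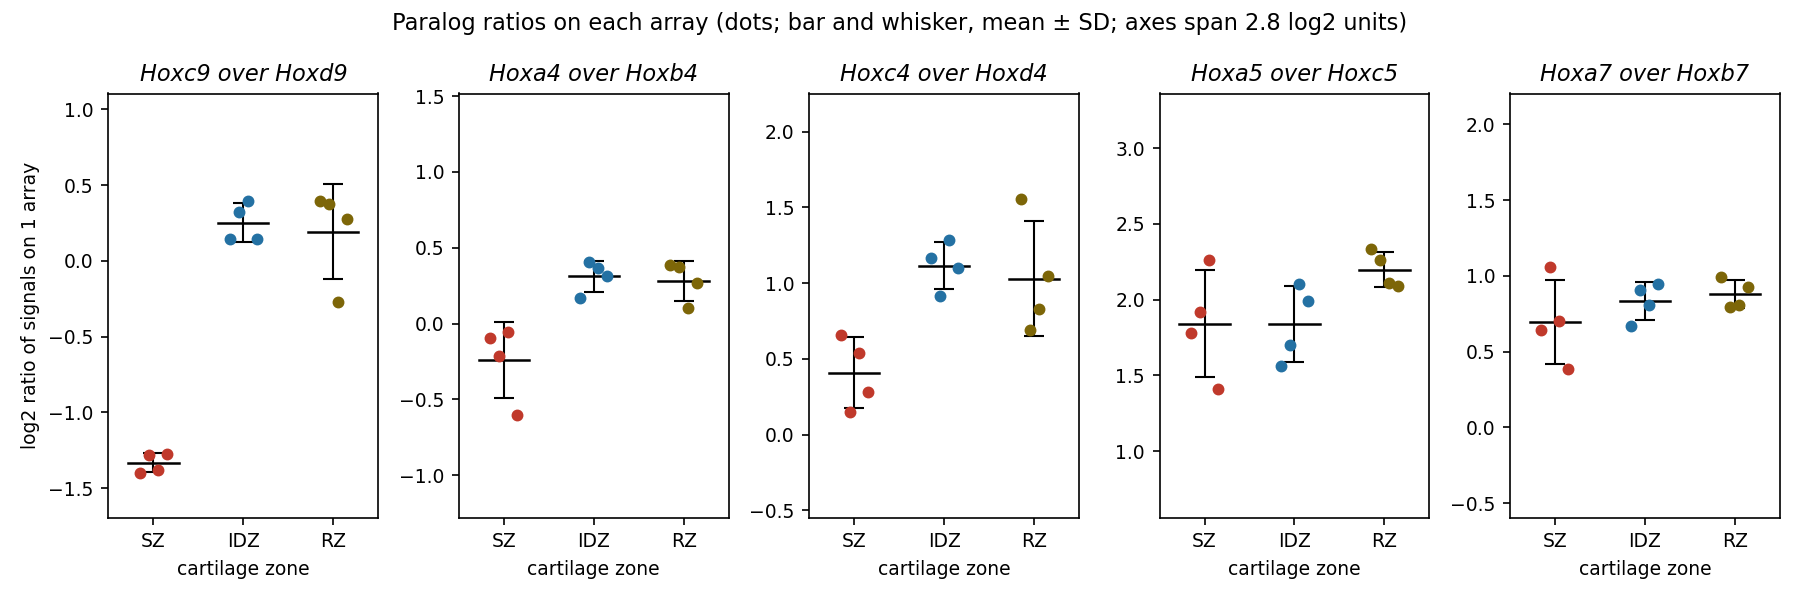
Log2 ratio of the signals of 2 paralogs on the same array (vertical axis; each panel spans 2.8 log2 units) for the 4 arrays of each zone (dots) with mean and SD, SZ left, IDZ middle, RZ right. For Hoxc9 over Hoxd9 all SZ dots lie between -1.40 and -1.27 and all IDZ and RZ dots above -0.28, while Hoxa5 over Hoxc5 and Hoxa7 over Hoxb7 overlap.

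Of the remaining genes of clusters a and d, apart from Hoxd3, Hoxa2 alone passed the test in any comparison. Hoxa11, of the group that patterns the tibial segment, had signals of 8.67 to 9.16 in SZ, 9.05 to 9.47 in IDZ and 8.84 to 9.12 in RZ. These ranges overlapped, and the difference in SZ minus IDZ was -0.25 with a 95% interval of -0.51 to 0.01 (adjusted p = 0.16). In SZ minus RZ the Hoxa11 difference was -0.00, with an interval of -0.26 to 0.26. Hoxa7, a trunk gene, differed by -0.08 in SZ minus IDZ (-0.30 to 0.14) and -0.19 in SZ minus RZ (-0.41 to 0.03). Hoxd13, of the foot and hand group, differed by -0.13 (-0.40 to 0.13) and Hoxd10, which was dim, by 0.07 (-0.25 to 0.39) in SZ minus IDZ. Hoxd4 was 6.34 to 6.46 on SZ replicates 1 to 3 and 7.09 on SZ replicate 4, against 6.46 to 6.74 in IDZ and 6.17 to 6.59 in RZ, so that a single array set its SZ range. Hoxd1, a gene of the front end of its cluster, missed the threshold in SZ minus IDZ at -0.24 ± 0.10 (adjusted p = 0.10), and passed it at -0.29 without SZ replicate 4. Hoxa2, which patterns the second pharyngeal arch, was called lower in SZ than in IDZ at -0.33 (adjusted p = 0.037), but it was dim and its arrays overlapped, with 5.56 to 6.00 in SZ and 5.99 to 6.22 in IDZ. That call was lost without IDZ replicate 1 or 3 or SZ replicate 1 or 3, at -0.32 to -0.26.

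No gene of cluster b passed the test in any of the 3 comparisons (limma), and 0 of the 6 had an unadjusted p under 0.05 in any of them. Plain one-way contrasts gave 1 such unadjusted p, for Hoxb9 in SZ minus RZ, and 0 calls. The 6 differences ran from -0.16 to 0.10 in SZ minus IDZ, from -0.07 to 0.20 in IDZ minus RZ and from -0.11 to 0.18 in SZ minus RZ. Hoxb3, Hoxb4 and Hoxb7 were above background, with zone means of 7.10 to 7.88. For Hoxb7 the 95% interval in SZ minus IDZ was -0.13 to 0.24, and for Hoxb3 it was -0.27 to 0.22. Each of these intervals leaves out a 2-fold fall. Hoxb4 ran from 7.46 to 8.17 in SZ, 7.82 to 7.95 in IDZ and 7.84 to 7.89 in RZ, so SZ spread on both sides of the other zones. Its highest SZ value, and that of Hoxb3 at 7.67, came from SZ replicate 4. Without SZ replicate 4, Hoxb4 at -0.27 and Hoxb8 at -0.23 were called lower in SZ than in IDZ, and Hoxb4 at -0.25 lower than in RZ. In cluster c, Hoxc12 was dim in all zones and differed by -0.09 in SZ minus IDZ (-0.41 to 0.23).

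In IDZ compared with RZ, which set the deep articular layer against the growth plate, 1 member was higher and 0 were lower (limma), while 3.22% of all genes were higher and 5.58% lower. The gene was Hoxd3, which patterns the first neck vertebrae in the mouse. Its signal was 6.44, 6.48, 6.46 and 6.73 in IDZ, against 6.21, 6.13, 6.10 and 6.09 in RZ, with 6.29, 6.16, 6.12 and 6.36 in SZ. The IDZ arrays lay above all others by a small margin, and the SZ and RZ means were under the background level, so the size of these differences is less certain than their direction. The difference was 0.39 ± 0.09 in IDZ minus RZ (adjusted p = 0.019) and -0.29 ± 0.09 in SZ minus IDZ (adjusted p = 0.034). At 2-fold, 0 members were higher and 0 lower, while 0.706% of all genes were higher and 0.524% lower. All IDZ arrays were above all RZ arrays for 3 members (Hoxb3, Hoxb13 and Hoxd3), as for 8.71% of all genes. At an unadjusted p under 0.05, 3 members were higher (Hoxc5, Hoxc9 and Hoxd3) and 0 lower. Both counts were the same in plain one-way contrasts and with trended variances. The share of all genes at this unadjusted threshold was not computed, so these counts cannot be set against it. The call of Hoxd3 was lost in IDZ minus RZ without IDZ replicate 4 or without RZ replicate 2, 3 or 4, at 0.32 to 0.39. In SZ minus IDZ it was lost without IDZ replicate 2 or 4 or without SZ replicate 1, 2 or 3, at -0.31 to -0.23.

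Because same-numbered IDZ and RZ samples came from the same animals, the differences were also taken within each animal pair. With the pair as a block, 4 members were higher in IDZ (Hoxd3, Hoxc4, Hoxc5 and Hoxc9) and 0 lower, while 6.06% of all genes were higher and 11.9% lower. The blocked differences were 0.29 for Hoxc4 (adjusted p = 0.032), 0.42 for Hoxc5 (adjusted p = 0.048) and 0.26 for Hoxc9 (adjusted p = 0.044). Fitting IDZ and RZ alone without the block called 2 members higher (Hoxc5 and Hoxd3) and 0 lower, while 6.13% of all genes were higher and 12.7% lower. The Hoxc9 difference was 0.29, 0.21, 0.36 and 0.19 in pairs 1 to 4, positive in each, whereas Hoxc5 gave 0.46, 0.81, 0.43 and -0.01, near 0 in the last pair. In all, 8 of 21 members were higher in IDZ in all 4 pairs and 0 were lower in all 4, while 17.8% of all genes were higher and 23.9% lower in every pair. The 8 were Hoxa2, Hoxa11, Hoxb3, Hoxb8, Hoxb13, Hoxc4, Hoxc9 and Hoxd3. Of these, Hoxa2, Hoxb8 and Hoxb13 were dim, and the lowest pair difference was 0.012 for Hoxa2 and 0.009 for Hoxb8.

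**Figure D4:**
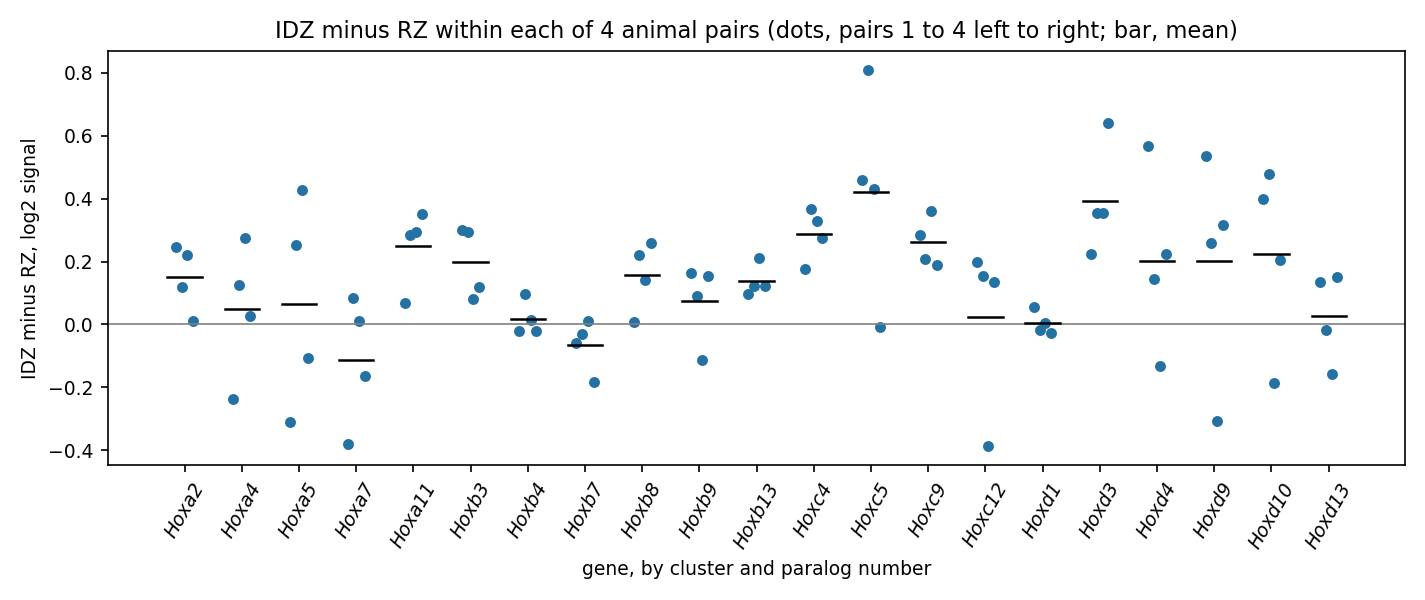
IDZ minus RZ difference in log2 signal (vertical axis) within each of the 4 animal pairs (dots) and their mean (bar) for the 21 Hox genes in order of cluster and paralog number. Hoxc4, Hoxc9 and Hoxd3 lie above 0 in all 4 pairs, and Hoxa4, Hoxa5 and Hoxa7 lie on both sides of 0.

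In SZ compared with RZ, 4 members were lower (Hoxa4, Hoxa5, Hoxc5 and Hoxc9) and Hoxd9 was higher, while 12.2% of all genes were lower and 14.5% higher. This comparison uses the same SZ arrays as SZ minus IDZ and is no independent repeat of it. At 2-fold, 1 member was lower and 0 higher, while 1.75% of all genes were lower and 4.92% higher. The 4 lower members and Hoxd9 were also those whose SZ and RZ arrays did not overlap, while 13.5% of all genes lay wholly lower in SZ and 13.6% wholly higher. The cluster medians were -0.19 for a, 0.03 for b, -0.67 for c and 0.14 for d. Without SZ replicate 4, 8 members were lower, with Hoxa2, Hoxb4, Hoxc4 and Hoxd1 added, and 1 higher, while 15% of all genes were lower and 19.3% higher.

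Markers of chondrocytes and of other cell types differed between zones alongside these results. Of the chondrocyte list, 12 of 13 measured genes were lower in SZ than in IDZ, with a median difference of -0.93, and 0 were called between IDZ and RZ (limma; 1 at an unadjusted p under 0.05). Per array, the mean signal of that list ran from 11.03 to 11.40 in SZ, 12.14 to 12.20 in IDZ and 12.06 to 12.24 in RZ. In SZ minus IDZ, all 7 endothelial genes were higher (median 2.43), as were all 10 macrophage genes (median 2.08), 10 of 11 fibroblast and tendon genes (median 1.92) and 6 of 7 pericyte and smooth muscle genes (median 1.71). Among all genes, 17% were higher and 9.56% lower in SZ minus IDZ, and 3.22% were higher and 5.58% lower in IDZ minus RZ. The endothelial mean ran from 8.74 to 9.47 in SZ, 6.71 to 7.09 in IDZ and 6.53 to 6.80 in RZ. The fibroblast and tendon mean ran from 10.99 to 11.50 in SZ, 8.55 to 9.05 in IDZ and 7.83 to 8.19 in RZ. The macrophage mean ran from 8.20 to 9.03 in SZ, 6.64 to 6.73 in IDZ and 6.33 to 7.05 in RZ. Zone means under the background level were found for 0 of 7 endothelial genes in SZ, 1 in IDZ and 1 in RZ, and for 2 of 10 macrophage genes in SZ, 5 in IDZ and 5 in RZ.

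The part of these other cells in the Hox differences was not tested. In SZ minus IDZ the 13 chondrocyte genes differed by -1.41 (Snorc, named after its values were seen) to -0.19 (Col2a1). Hoxc9 at -1.16 and Hoxa11 at -0.25 lay within this range. Hoxa5 and Hoxc5, each at -1.38, lay within it only through Snorc, since the next largest fall was -1.32 (Matn3). In SZ, Hoxc5 was under the background level and Hoxc9 close to it. Hoxa7, Hoxa11 and the 6 genes of cluster b, at -0.25 to 0.10, did not pass the test. Prg4, which encodes the lubricant of the joint surface and marks SZ, averaged 12.78 ± 0.19 in SZ, 10.31 ± 0.97 in IDZ and 5.68 ± 0.50 in RZ (SD, n = 4 each), the last under the background level. The cartilage matrix genes Acan and Col2a1 averaged 12.65 and 13.66 in SZ, 13.29 and 13.84 in IDZ, and 13.37 and 13.75 in RZ. No marker that defines IDZ or RZ alone was in the lists. Each of the 5 measured joint surface genes also exceeded its IDZ level in SZ. Of the 9 proliferation genes, 8 were called higher in SZ minus IDZ and 8 lower in IDZ minus RZ. Over all genes these shares were 17% higher and 9.56% lower in SZ minus IDZ, and 3.22% higher and 5.58% lower in IDZ minus RZ. Of the bone, blood and muscle markers in SZ minus IDZ, 1 of 7 osteoblast genes was higher and 1 lower, 3 of 4 osteoclast genes were higher, 2 of 6 skeletal muscle genes were lower, and 0 of 5 erythroid genes were called (limma; 0 at an unadjusted p under 0.05).

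**Figure D5:**
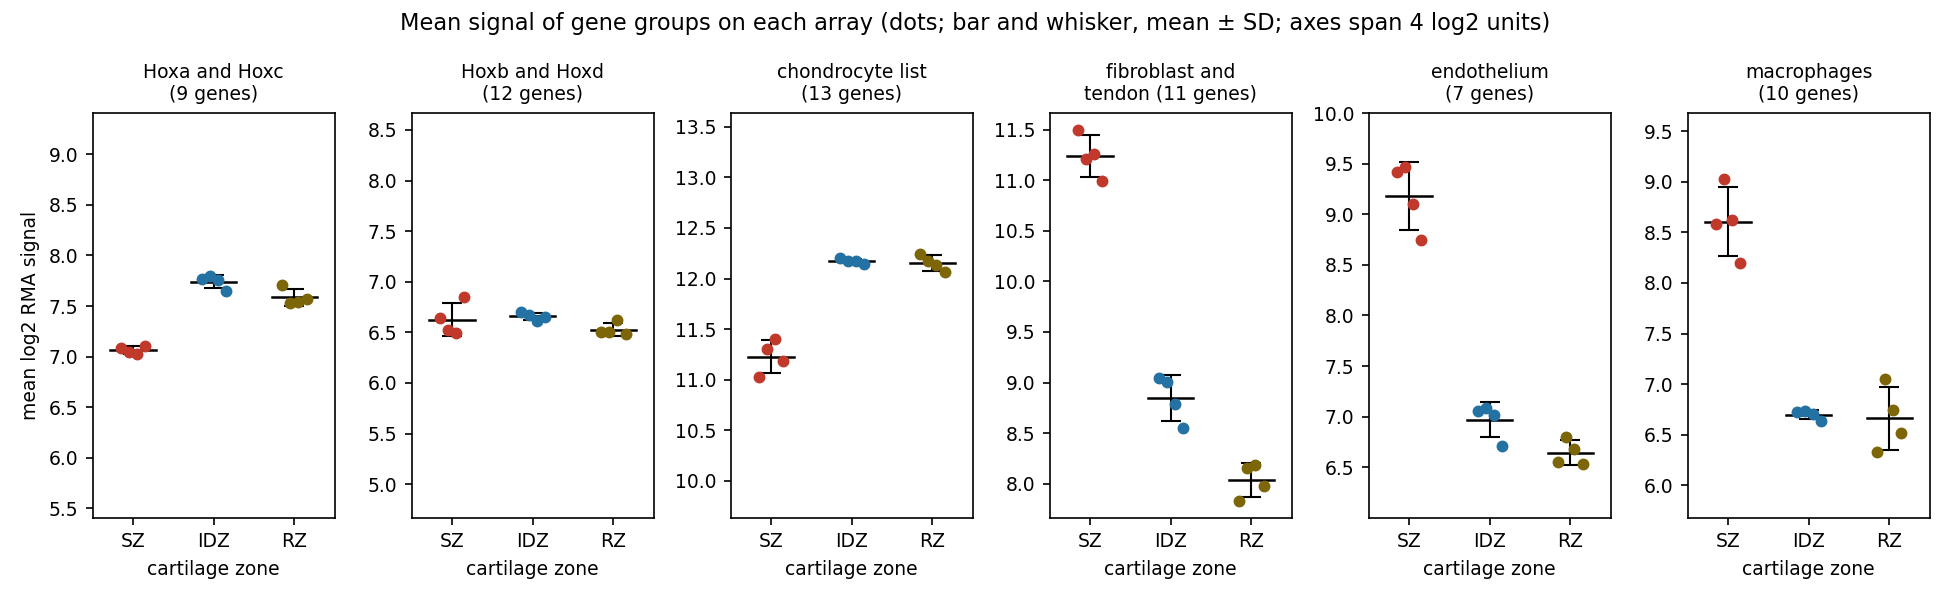
Mean log2 RMA signal (vertical axis; each panel spans 4 log2 units) over the genes of a group on each array (dots), with mean and SD, SZ left, IDZ middle, RZ right. The Hoxa and Hoxc mean runs from 7.02 to 7.10 in SZ, 7.64 to 7.79 in IDZ and 7.52 to 7.71 in RZ, the chondrocyte mean is also lowest in SZ, and the fibroblast, endothelial and macrophage means are highest there.

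Among the genes that work with Hox proteins, the TALE cofactors moved in both directions. Of 7 measured, 1 was higher and 1 lower in SZ than in IDZ, while 17% of all genes were higher and 9.56% lower. In SZ minus RZ, 3 were higher and 1 lower, while 14.5% of all genes were higher and 12.2% lower. Between IDZ and RZ 0 were called (limma), with 1 at an unadjusted p under 0.05, while 3.22% of all genes were higher and 5.58% lower. Pbx3 was the gene with the largest difference. It had signals of 9.32, 9.25, 9.26 and 9.11 in SZ, against 8.62, 8.68, 8.52 and 8.82 in IDZ and 8.60, 8.79, 8.69 and 8.80 in RZ. Every SZ array was above every other, at 0.57 in SZ minus IDZ (adjusted p = 0.0003) and 0.51 in SZ minus RZ (adjusted p = 0.00069). Meis2, at 0.47, and Meis3, at 0.39, were higher in SZ than in RZ, though Meis2 was under the background level in all zones and Meis3 in RZ. Pbx2 differed by -0.36 in SZ minus RZ (adjusted p = 0.040). Meis1, named after its values were seen as the 1 gene lower in SZ than in IDZ, differed by -0.30 (adjusted p = 0.015).

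Of 16 measured Polycomb and trithorax regulators, 6 were lower and 1 higher in SZ than in IDZ, 5 were lower and 1 higher in SZ than in RZ, and Ezh2 alone was called in IDZ minus RZ. Among all genes, 9.56% were lower and 17% higher in SZ than in IDZ, and 12.2% lower and 14.5% higher in SZ than in RZ. In IDZ minus RZ, 5.58% of all genes were lower and 3.22% higher. The median difference in SZ minus IDZ was -0.07. Cbx8 and Cbx2, which bind the histone mark that Polycomb leaves, had the largest falls. Cbx8 had signals of 6.50, 6.73, 6.79 and 6.25 in SZ, against 7.16, 7.32, 7.24 and 7.43 in IDZ and 7.78, 7.49, 7.38 and 7.50 in RZ. No SZ array overlapped the others, at -0.72 in SZ minus IDZ (adjusted p = 0.00054) and -0.97 in SZ minus RZ (adjusted p = 3.1e-05). Cbx2 differed by -0.50 and -0.81 in the same comparisons. Kdm6b, a demethylase that removes the Polycomb mark, was also lower in SZ, at -0.44 against IDZ and -0.45 against RZ. Ezh2, the methyltransferase that writes the mark, differed by -0.58 in IDZ minus RZ (adjusted p = 0.0078). The proliferation genes given above were lower in IDZ than in RZ as well, and their part in this difference was not tested.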

How the data were processed

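The 12 samples were hybridised to Affymetrix Rat Gene 1.0 ST arrays. According to the labels, the authors made the deposited log2 values by RMA in Partek Genomics Suite 6.6, and 27342 transcript clusters were used as deposited, with no further scaling. Gene names were taken from the platform annotation, in which 15068 clusters had 1 symbol, 323 several and 11951 none. All 21 Hox gene IDs carried the same symbol in RefSeq. No genome build was used for the arrays, and whether the annotation keeps the probes of overlapping Hox genes apart was not tested.

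A linear model with a mean for each of the 3 zones was fitted to the 12 arrays with limma 3.58.1 under R 4.3.3, and p-values were adjusted by Benjamini-Hochberg over all clusters within each comparison. The study's methods used a one-way model, which was run as an alternative, as were block, scaling, filter, fold and leave-one-out settings. The script was tested on simulated data. Ratios of paralogs were tested with exact permutation tests (scipy 1.17.1). The p-values measure the spread between these samples, which shared animals and whose number sets the precision. The labels give the animals, so same-numbered IDZ and RZ samples are pairs. The deviations of the pairs from their zone means correlated at 0.02 to 0.21.

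Every Hox gene at 2-fold and adjusted p under 0.05 was described on every array, with the genes of groups 9 to 13 that were called or above background, and up to 3 more genes per cluster by size of difference. In each other list up to 4 called genes were named, by their largest difference in any comparison, and Prg4, Acan, Col2a1, Pitx1, Tbx4 and Tbx5 were named as checks of the tissue. Members and gene lists were chosen with earlier results of these data known. Confidence intervals of differences are 95% intervals from the moderated variances.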

Additional observations from a re-analysis of the deposited data

Results flagged for a closer look

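Among the 63 groups of 4 arrays (21 Hox genes in 3 zones), 4 held an array whose gap to its nearest neighbour exceeded the 95% critical value of Dixon's ratio, which chance alone exceeds in about 1 in 20 groups. Hoxa5 in RZ replicate 1 was 9.70, next to 9.32 to 9.36 on the other RZ arrays. Hoxb3 in SZ replicate 4 was 7.67, next to 7.11 to 7.20. Hoxd4 in SZ replicate 4 was 7.09, next to 6.34 to 6.46, and this array also had the narrowest spread of signals. Hoxd3 in IDZ replicate 4 was 6.73, next to 6.44 to 6.48, and without this array the difference of Hoxd3 in IDZ minus RZ no longer passed the threshold.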

How the results depend on the processing

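The differences of Hoxa4, Hoxa5, Hoxc4, Hoxc5 and Hoxc9 in SZ minus IDZ, and of Hoxa4, Hoxa5, Hoxc5, Hoxc9 and Hoxd9 in SZ minus RZ kept their direction and their call under all 21 alternatives other than the 2-fold minimum. Over the 14 calls, 308 alternative values were computed, of which 272 kept the call, 36 lost it and 0 reversed. Not all of these alternatives could move a difference. Taking every cluster by itself repeated the main fit, and leaving out an array of the zone outside the comparison could change only the estimate of the spread. The 2-fold minimum accounted for 10 of the 36, since those differences were smaller than 2-fold. The other lost calls were those of Hoxa2 (6 of 20 alternatives), Hoxd3 (8 of 21) and Hoxd9 (7 of 21) in SZ minus IDZ and of Hoxd3 in IDZ minus RZ (5 of 22), and the cause was not tested. A 2-fold minimum left 3 members lower and 0 higher in SZ minus IDZ, 0 higher in IDZ minus RZ, and 1 lower and 0 higher in SZ minus RZ. Plain one-way contrasts called 0 higher in SZ minus IDZ. In IDZ minus RZ, arrays scaled to 1 interquartile range gave 0 higher, the fit of the 2 zones alone 2 and the replicate block by animal pair 4. In SZ minus RZ, 5 members were lower, against 4 in the main fit, with arrays centred on their medians, without RZ replicate 2 and without dim transcript clusters. The random block by animal pair changed no call. It put SZ samples of different animals into the same block, and its consensus correlation was -0.14. It therefore cannot tell whether shared animals mattered.

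Leaving out 1 array at a time gave 5 to 10 members lower and 0 to 1 higher in SZ minus IDZ, 0 to 2 higher in IDZ minus RZ, and 4 to 8 lower and 1 higher in SZ minus RZ. The highest counts lower, and the 2 higher in IDZ minus RZ, were those without SZ replicate 4. In that fit, 19% of all genes were lower in SZ minus IDZ and 15% in SZ minus RZ. With all arrays these shares were 9.56% and 12.2%. Without the 6 dim members the medians were -0.24 in SZ minus IDZ and 0.20 in IDZ minus RZ over all members. For cluster a they were -0.47 in SZ minus IDZ and -0.41 in SZ minus RZ, for cluster c -1.16 and -0.90, and for cluster b 0.018 in IDZ minus RZ. For groups 1 to 4 the median was then 0.20 in IDZ minus RZ, for groups 5 to 8 it was -0.73 in SZ minus IDZ and -0.58 in SZ minus RZ, and for groups 9 to 13 it was -0.19 in SZ minus IDZ. Taking every cluster with a Hox symbol by itself gave the same values, since no gene had more than 1. Signals near the background level limit Hoxc5, Hoxc9 and Hoxd3.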

Other observations

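Genes that flank the Hox clusters were listed together with the caudal homeobox genes. Of 15 measured, 3 were higher and 0 lower in SZ than in IDZ, while 17% of all genes were higher and 9.56% lower. In SZ minus RZ, 2 were higher and 0 lower, while 14.5% of all genes were higher and 12.2% lower. Between IDZ and RZ 0 were called (limma), with 1 at an unadjusted p under 0.05, while 3.22% of all genes were higher and 5.58% lower. Snx10, which neighbours the Hoxa cluster, had signals of 7.06, 7.11, 6.59 and 6.32 in SZ, against 5.44, 5.07, 5.09 and 5.42 in IDZ and 4.95, 5.44, 5.86 and 5.72 in RZ. The SZ arrays lay above all others, at 1.51 in SZ minus IDZ (limma, adjusted p = 5.2e-05), while the IDZ and RZ arrays were all under the background level of 6.36, so the size of the difference is less certain than its direction. Skap2, beside the Hoxa cluster as well and active in immune cells, was 1.00 higher in SZ than in IDZ on the log2 scale, with the same limit, since its IDZ and RZ means of 6.10 and 6.23 were under that level. Smug1, a DNA repair enzyme near the Hoxc cluster, was 0.43 higher. The macrophage list rose in SZ too, and its part in the Snx10 and Skap2 differences was not tested.

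Of 19 other limb regulators, 5 were higher and 3 lower in SZ than in IDZ, while 17% of all genes were higher and 9.56% lower. In IDZ minus RZ, 8 were higher and 1 lower, while 3.22% of all genes were higher and 5.58% lower. In SZ minus RZ, 10 were higher and 1 lower, while 14.5% of all genes were higher and 12.2% lower. Prrx1, a mesenchyme factor of the limb bud, was 3.21 higher in SZ than in RZ on the log2 scale (adjusted p = 8.7e-12). Its relative Prrx2 was 2.16 higher (adjusted p = 4.1e-08), and Shox2, which drives growth of the upper limb segment in the mouse, differed by -1.98 (adjusted p = 3.2e-08). Pitx1 and Tbx4, which set hindlimb identity, averaged 9.24 and 10.14 in SZ, 9.64 and 10.07 in IDZ, and 9.24 and 9.72 in RZ. Tbx5, the forelimb counterpart of Tbx4, had signals of 6.72, 7.11, 6.78 and 6.75 in SZ, against 8.26, 8.50, 6.68 and 6.97 in IDZ and 5.71, 5.68, 5.80 and 5.72 in RZ. The IDZ samples of animals 1 to 4 thus stood above those of animals 5 to 8, and all RZ samples lay under the background level.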
